A study of Homo sapiens with 3 samples.

Results

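The replicative DNA polymerases of H9 cells were described from the counts of 10 genes, which encode the catalytic and accessory subunits of DNA polymerase α with its primase (POLA1, POLA2, PRIM1 and PRIM2), of polymerase δ (POLD1, POLD2, POLD3 and POLD4) and of polymerase ε (POLE and POLE2). They were taken by gene symbol from the 58051 genes in the deposited counts, and all 10 had a match. H9 is an established line of human embryonic stem cells (hESC). Total RNA was sequenced after depletion of ribosomal RNA from 3 libraries of 1 group, wild-type H9 cells without treatment, grown in Essential 8 Flex medium on plates coated with Vitronectin-XF. All values therefore come from a single cell line in a single condition, with no control group, and the labels do not say whether the 3 replicates were separate cultures. The study estimated gene expression in H9 cells in order to compare breaks at replication origins among genes of different expression. Levels were measured here as TPM, the reads on a gene per kilobase of its annotated exons, scaled to the same total in every library. Total counts were 10390984, 12024802 and 8655155 in replicates 1, 2 and 3. All 8 pluripotency markers examined were high, between 259 and 2576 TPM, whereas of 12 markers of neural ectoderm, mesoderm, endoderm and fibroblasts or feeder cells the highest was COL1A2, at 25.6 TPM over all exons and 33.0 TPM with its canonical transcript, the main one that Ensembl names, as its length.

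Replication of the nuclear genome needs a division of labor between these enzymes. Polymerase α-primase lays down a short RNA primer and extends it with DNA, polymerase δ extends primers on the lagging strand and near origins, and polymerase ε is the main leading strand polymerase. POLD1 and POLE carry a proofreading exonuclease, which POLA1 lacks. Genes for replication enzymes are known targets of E2F transcription factors, which act at the passage from G1 into S phase. Bulk RNA-seq does not distinguish fewer cells in S phase from less RNA per cell.

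The promoters of the subunits were examined for letters that E2F factors are known to bind, because this is a feature that the genes may share beyond their function. RefSeq promoters on build GRCh38.p14, from 250 bases before to 50 bases after each start, were given for 9 of the 10 genes. POLD3 had no entry. The motifs TTTCGCGC, TTTGGCGC, TTTCCCGC and TTTGCCGC were searched on both strands. POLA1, POLA2, POLE and POLE2 each held 1 of them, that is the catalytic and the B subunit of polymerases α and ε. The following stretches of 30 bases, 5′ to 3′ on the strand of the gene, show where they lie, with the motif or its reverse complement in capitals.
POLA1, chrX:24693770-24693799, plus strand: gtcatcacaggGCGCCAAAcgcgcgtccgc
POLA2, chr11:65261898-65261927, plus strand: ttggctcccggTTTCGCGCatgcgtgcact
POLE, chr12:132687342-132687371, minus strand: tgggtgggagcGCGCCAAAtttctcccctg
POLE2, chr14:49688201-49688230, minus strand: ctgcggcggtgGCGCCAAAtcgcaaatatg

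The first base of the motif lay 137, 53, 18 and 5 bases before the start in POLA1, POLA2, POLE and POLE2. POLA1, POLE and POLE2 held the same 8 letters, on the opposite strand to the gene, and POLA2 held the TTTCGCGC form on its own strand. Of all 35116 promoters in the table, 3.315% held at least 1 of the 4 motifs, and of the 22199 promoters of protein-coding genes 4.099% did. By gene, the shares were 4 of 9 subunits (44.4%) and 5.40% of protein-coding genes. Of the other DNA polymerases, described further on, 2 of 15 genes (13.3%) held a motif. The median GC content of the promoters was 68.2% for the subunits, 69.5% for the other DNA polymerases and 62.3% for protein-coding genes. Whether GC content bears on these shares was not tested. Among 33 genes that work with these polymerases at the fork, named in part further on, 27 had a promoter in the table. Of these, 9 (33.3%) held a motif. The 33 genes include POLE3 and POLE4, which are themselves subunits of polymerase ε. POLE4 held TTTCCCGC on the opposite strand, with its first base 31 bases before the start. No motif of this kind was in the given promoters of PRIM1, PRIM2, POLD1, POLD2 or POLD4, and no test was made. The CCAAT box, which is bound by NF-Y, was searched in the same way. It was in the promoters of POLA1, PRIM1, POLD2, POLD4 and POLE, 5 of 9 genes, against 42.1% of protein-coding genes.

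All 10 genes had reads in every library, and 8 of them were in the high class of expression. Classes were made as the study did, with genes below 0.01 TPM called nonexpressed and the others divided into 3 quantiles. The boundaries were 3.35 TPM between low and medium and 27.0 TPM between medium and high, over 19629 protein-coding genes. The high class holds 28.8% of protein-coding genes and 80.0% of the subunits. POLA2 was medium and POLD4 low. POLA2 was also in the high class, for a count of 9, with the longest or the canonical transcript as gene length or with classes over all genes, and POLD4 was medium in the first and the last of these. The median of the 10 mean levels was 36.0 TPM, against 7.10 TPM over all protein-coding genes, and its median percentile was 76.5. PRIM2 lay above the high boundary by less than its SD, and without replicate 1 or replicate 2 it was below it, which left 7 genes in the class. The subunits together held 6618, 7852 and 5691 reads, or 637, 653 and 658 CPM, the count scaled to the same total in each library.

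**Figure D1:**
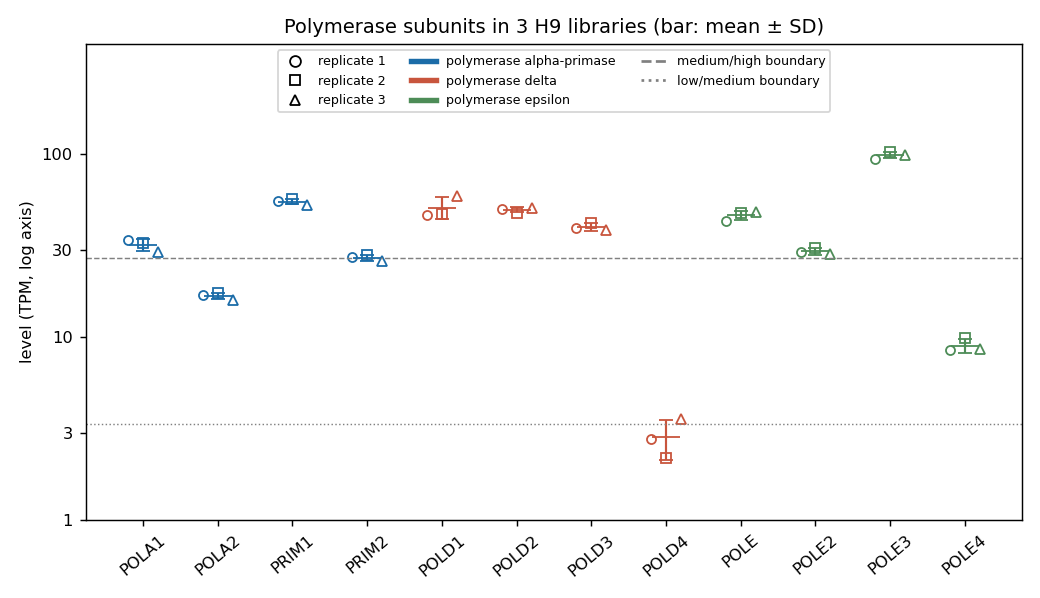
Level of each subunit in TPM (log axis) in 3 H9 libraries, with 1 symbol per replicate and a bar for the mean ± SD; POLE3 and POLE4 are the other subunits of polymerase ε. All subunits but POLD4 and POLE4 sit above 15 TPM in every library, and POLD4 sits at 2.16 to 3.54 TPM, around the dotted low/medium boundary.

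In polymerase α-primase, the catalytic subunits POLA1 and PRIM1 were each higher than their partners POLA2 and PRIM2. POLA1 (ENSG00000101868, chromosome X, 24693873 to 24996986), the catalytic subunit, had 1364, 1544 and 1009 reads, or 33.7, 32.8 and 29.2 TPM in replicates 1, 2 and 3. Its mean was 31.9 ± 2.36 TPM (SD, n = 3), and replicate 3 was lowest. POLA2 (ENSG00000014138, chromosome 11, 65261913 to 65305959), the B subunit that has no catalytic activity, had 17.0, 17.3 and 15.99 TPM, a mean of 16.8 ± 0.697 TPM. Its 3 values were below every value of POLA1. PRIM1 (ENSG00000198056, chromosome 12, 56730438 to 56752374), the primase subunit that makes the RNA primer, had 55.3, 56.6 and 53.0 TPM and a mean of 54.9 ± 1.85 TPM, the highest of the 10 genes on this scale. PRIM2 (ENSG00000146143, chromosome 6, 57314805 to 57646850), the regulatory primase subunit with an iron-sulfur cluster, had 27.4, 28.0 and 26.1 TPM and a mean of 27.2 ± 0.990 TPM. The 2 primase subunits differed in every library, with no overlap.

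In polymerase δ, POLD4 was far lower than the other subunits, which had means between 40.04 and 51.0 TPM over all exons but between 35.1 and 149 TPM with canonical lengths. POLD1 (ENSG00000062822, chromosome 19, 50384204 to 50418018), the catalytic subunit, had 598, 706 and 647 reads, or 46.6, 47.3 and 59.1 TPM, with a mean of 51.0 ± 7.03 TPM (SD, n = 3). Replicate 3 stood above both others. POLD2 (ENSG00000106628, chromosome 7, 44114631 to 44124358), the B subunit, had 50.1, 47.8 and 50.7 TPM and a mean of 49.5 ± 1.51 TPM. POLD3 (ENSG00000077514, chromosome 11, 74493851 to 74669117), which contacts the sliding clamp PCNA, had 39.7, 42.0 and 38.4 TPM and a mean of 40.04 ± 1.85 TPM. The values of POLD1 and POLD2 overlapped, and those of POLD3 were below both.

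POLD4 (ENSG00000175482, chromosome 11, 67350772 to 67356972), the smallest subunit of polymerase δ, which is known to be degraded after DNA damage, had 22, 20 and 24 reads in replicates 1, 2 and 3. These were 2.77, 2.16 and 3.54 TPM, a mean of 2.82 ± 0.690 TPM (SD, n = 3), at the 40.9th percentile of protein-coding genes. All 3 values were far below those of the other 9 genes. The exact 95% Poisson intervals of the levels were 1.73 to 4.19, 1.32 to 3.34 and 2.27 to 5.27 TPM. They overlap each other, and they hold no error beyond counting, because reads copied by PCR are not separate molecules. Of the annotated exon length of POLD4, 21.3% lies within exons of ENSG00000256514, a gene on the same strand that was listed with no read in any library. Reads common to both genes could have been left out of the counts. The shared bases were then removed from its length, to allow for such a loss at even coverage. The mean of POLD4 was 3.59 TPM, and the gene was still the lowest of the 10. This mean is above the main low/medium boundary of 3.35 TPM. ENSG00000256514 matched 659 bp of the canonical POLD4 transcript at 99.8% identity, and that transcript is only 1694 bp long. If most reads came from it, the loss could be larger than was allowed for.

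Polymerase ε had its catalytic subunit at a level near that of POLD1. POLE (ENSG00000177084, chromosome 12, 132623753 to 132687376) had 1388, 1777 and 1315 reads, the most of the 10 genes, or 43.1, 47.5 and 47.9 TPM, with a mean of 46.2 ± 2.65 TPM (SD, n = 3). Replicate 1 was lowest. POLE2 (ENSG00000100479, chromosome 14, 49643555 to 49688422), the B subunit, had 29.1, 30.6 and 28.3 TPM and a mean of 29.3 ± 1.13 TPM, with every value below those of POLE. The histone-fold subunits POLE3 and POLE4 complete the enzyme. POLE3 had 94.5, 103 and 99.0 TPM, and POLE4 had 8.45, 9.91 and 8.56 TPM from only 44, 60 and 38 reads. The subunit of smallest level was thus an accessory one in polymerase δ, in polymerase ε and, as POLA2, in polymerase α. POLE3 is also known as a subunit of a chromatin remodeling complex.

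In the order of mean levels, PRIM1 was followed by POLD1, POLD2, POLE, POLD3, POLA1, POLE2, PRIM2, POLA2 and POLD4. Neighbors were called apart where their ranges over the 3 libraries did not overlap. POLE and POLD3, POLD3 and POLA1, POLE2 and PRIM2, PRIM2 and POLA2, and POLA2 and POLD4 were apart. PRIM1 and POLD1, POLD1 and POLD2, POLD2 and POLE, and POLA1 and POLE2 were not. Among the 4 highest genes, PRIM1 was apart from POLD2 and POLE, and POLD1 overlapped all the others. Over all 45 pairs of subunits, 40 were apart, and 42 had the same order in all 3 libraries. An exact two-sided permutation test of 3 values against 3 separate ones cannot go below p = 0.1. The values of the subunits come from the same 3 libraries and are paired, which such a test ignores. No test was made.

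Part of this order depended on the length by which the reads were divided. The annotated exons of these genes, summed over all transcripts, are between 1.44 and 4.98 times as long as the canonical transcript that Ensembl names for each gene. The ratio was highest for POLD2, with 68 annotated transcripts and 8005 bp of exons against a canonical transcript of 1609 bp. With canonical lengths POLD2 rose from 49.5 to 149 ± 4.95 TPM and was the highest of the 10 genes. POLA1 then had 54.6 ± 3.83 TPM, POLA2 34.3 ± 1.29 TPM, PRIM1 77.1 ± 2.31 TPM and PRIM2 40.2 ± 1.32 TPM, all above the values given by all exons. POLD1, POLD3, POLD4, POLE and POLE2 moved less, to 44.2, 35.1, 3.07, 44.05 and 30.8 TPM. Of the 40 pairs that were apart, 7 changed the order of their means. Among these 7, POLA1 and POLD1 had overlapping ranges with canonical lengths. POLA2 and POLD3, PRIM2 and POLD1, and PRIM2 and POLE kept the order of their means, but their ranges then overlapped. POLD4 was lowest and PRIM1 was above PRIM2, and POLA1 above POLA2, with either length. Counts per gene do not show which transcripts the reads came from, so the true lengths were not measured.

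**Figure D2:**
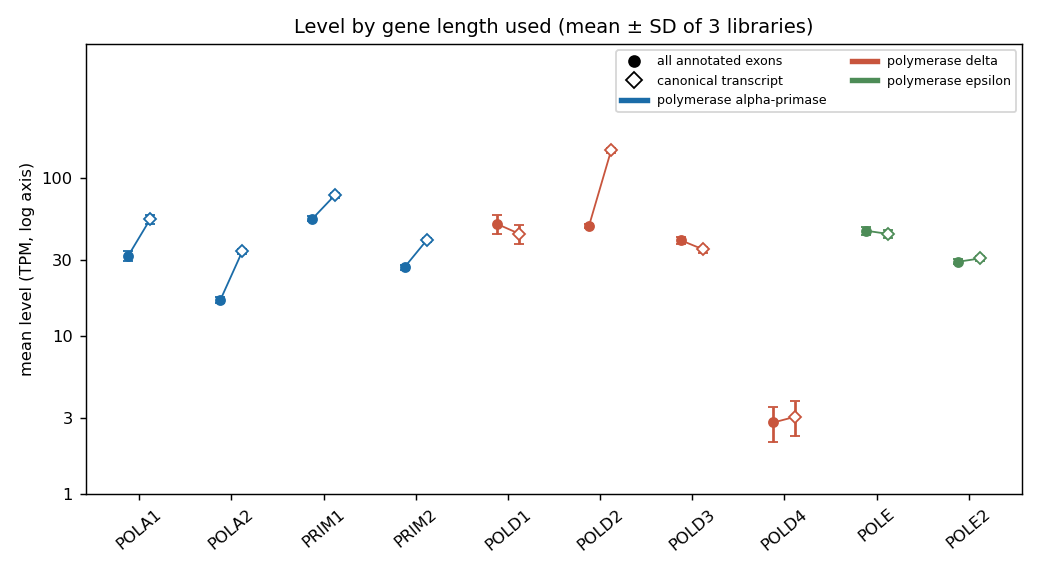
Mean level of each subunit in TPM (log axis, error bars SD of 3 libraries) with all annotated exons (filled circles) or the canonical transcript (open diamonds) as gene length. POLD2 moved most, from 49.5 to 149 TPM, and POLD4 stayed at about 3 TPM.

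The levels of subunits that work in the same complex were compared within each library, where the scaling of the library does not enter. PRIM1 was 2.02, 2.02 and 2.03 times PRIM2 in replicates 1, 2 and 3, a mean of 2.02 ± 0.00741 (SD, n = 3). The CV of this ratio was 0.366%, below the 6.83% that counting error alone gives at these counts, so the small SD is no measure of its precision. POLA1 was 1.98, 1.90 and 1.83 times POLA2, a mean of 1.90 ± 0.0756. Both ratios were above 1 in 3 of 3 libraries. POLA1 was 0.610, 0.580 and 0.552 times PRIM1. For these 3 ratios the canonical lengths gave means of 1.92, 1.59 and 0.707. The direction was the same with either length.

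In polymerase ε, POLE was 1.48, 1.55 and 1.69 times POLE2, a mean of 1.58 ± 0.107 (SD, n = 3), and 1.43 with canonical lengths. In polymerase δ, POLD1 was 0.929, 0.989 and 1.17 times POLD2, a mean of 1.03 ± 0.123 that does not differ from 1 beyond the spread. With canonical lengths this ratio was 0.297, so the relation of the catalytic to the B subunit of polymerase δ was set by the length chosen. POLD1 was 1.17, 1.12 and 1.54 times POLD3, a mean of 1.28 ± 0.226. POLD1 was 16.8, 21.8 and 16.7 times POLD4, a mean of 18.5 ± 2.94, and 14.7 with canonical lengths. Of the catalytic subunits of the main leading and lagging strand polymerases, POLD1 was 1.08, 0.996 and 1.23 times POLE, a mean of 1.10 ± 0.120. This ratio was on both sides of 1 over all exons, and with canonical lengths its mean was 1.00. Without the exon bases that POLD1 shares with ENSG00000142539 on the same strand, its mean was 1.21. The relation of POLD1 to POLE thus also varied with the length chosen.

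**Figure D3:**
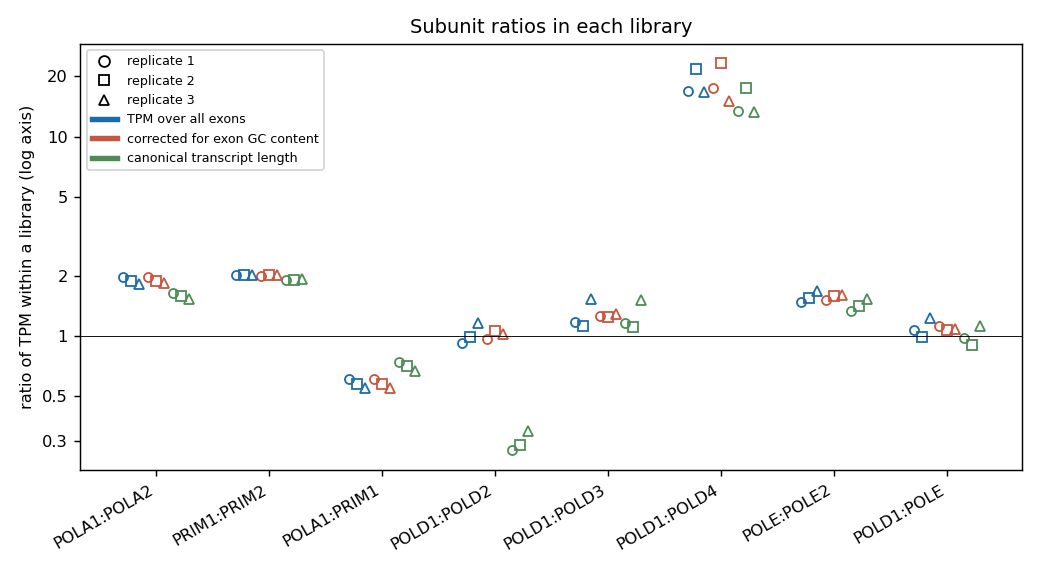
Ratio of TPM between subunits in each library (log axis), with 1 symbol per replicate, from all exons (blue), after correction for exon GC content (red) and with canonical transcript lengths (green). The 3 libraries of PRIM1:PRIM2 coincide near 2, and the high value of replicate 3 in POLD1:POLD2, POLD1:POLD3 and POLD1:POLE is closer to the others after the correction.

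The spread of most subunits between libraries was near what counting alone gives. The coefficient of variation (CV) of TPM was between 3.05% and 4.61% for POLA2, PRIM1, PRIM2, POLD2, POLD3 and POLE2. It was between 0.572 and 1.10 times the CV that Poisson counting gives at their counts. POLD4 had a CV of 24.4%, which is 1.15 times that of counting. POLD1, POLA1 and POLE were above it, with a CV of 13.8%, 7.40% and 5.75%, or 3.51, 2.65 and 2.20 times that of counting. Without replicate 3 the CV was 1.09% for POLD1 and 1.88% for POLA1, and without replicate 1 it was 0.632% for POLE, all below counting. In each case the library left out was the one farthest from the others, which always lowers the SD. For POLE the CV was 7.45% without replicate 2 and 6.82% without replicate 3. The low values therefore do not show that the excess spread came from 1 library. Among 2710 protein-coding genes with 0.67 to 1.5 times its mean count, 96.3% had a smaller CV than POLD1. For POLA1 this share was 82.6% and for POLE 66.7%.

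Replicate 3 stood apart from the others in these libraries, and whether a subunit was high or low in it went with base composition. POLA1, POLA2, PRIM1, PRIM2, POLD3 and POLE2, with an exon GC content between 38.7% and 48.8%, were lowest in replicate 3. POLD1, POLD2, POLD4 and POLE, with an exon GC content between 55.2% and 64.8%, were highest in it. In POLD2 the lead over the next library was 50.7 against 50.1 TPM, and in POLE 47.9 against 47.5 TPM, both below counting error. In POLD4 it rested on 24 reads against 22, and in POLD1 it was 59.1 against 47.3 TPM. Of the 9 genes with at least 100 reads in every library, which leaves out POLD4, 6 were lowest and 3 highest in replicate 3. Over 9386 protein-coding genes with as many reads, 48.2% were lowest and 31.9% highest in replicate 3. Of those with an exon GC content below 50%, 61.9% were lowest in it, and of those above 55%, 65.8% were highest. Among the 9 subunits, 6 of 6 below 50% and 3 of 3 above 55% were on the side of these majorities. The log2 ratio of replicate 3 to the mean of the other libraries was 0.33 for POLD1, -0.19 for POLA1, 0.08 for POLE and 0.05 for POLD2.

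After a correction of each library for exon GC content, POLD1 had 49.2, 51.3 and 51.2 TPM, and its CV fell from 13.8% to 2.38%. The ratio of POLD1 to POLD3 was then 1.26, 1.24 and 1.29, with an SD of 0.0231 in place of 0.226. No subunit with at least 100 reads was highest in replicate 3 after the correction, and POLA1, POLA2 and PRIM2 were lowest in it. POLA1 was still lowest in replicate 3, at 33.3, 32.2 and 30.1 TPM with a CV of 5.19%, and POLE had 43.5, 47.8 and 47.1 TPM with a CV of 4.98%. With TMM factors in place of the TPM total, replicate 3 was highest for 1 of the 9 genes. The share of all protein-coding genes was not taken on either of these scales. The counts of subunits on them therefore have no background to be read against.

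**Figure D4:**
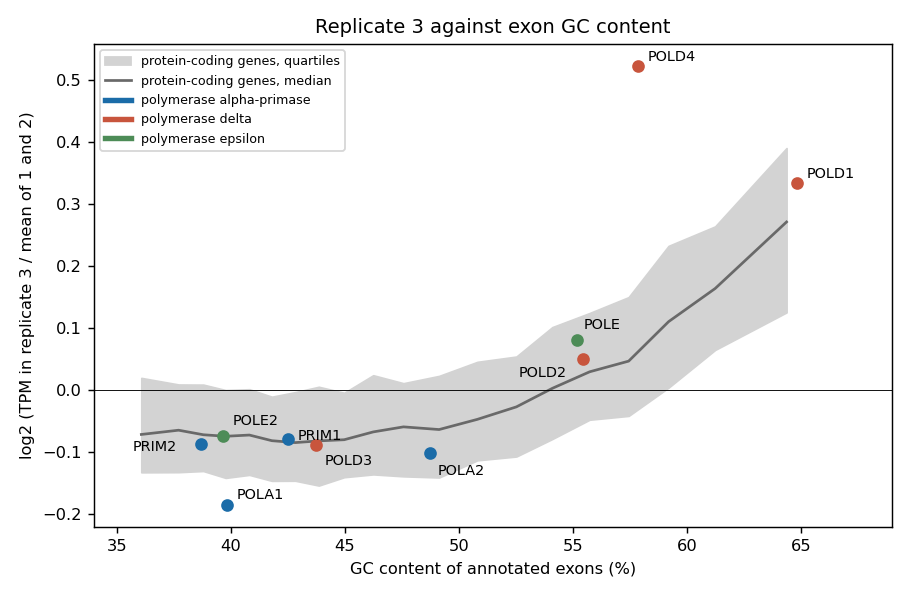
Log2 ratio of TPM in replicate 3 to the mean of replicates 1 and 2 against the GC content of annotated exons (%), for the 10 subunits (points) and for protein-coding genes with at least 100 counts in every library in 20 bins (line, median; band, quartiles). POLD1, at 64.8% GC, lies at 0.33 on the rising part, the subunits below 50% GC lie below 0, and POLD4, at 0.52, has 24 reads or fewer in each library.

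Copies of subunit genes could share reads with them. A search of the canonical transcripts against all annotated transcripts, for at least 90% identity over 400 bp, found copies of PRIM2, POLD2 and PRIM1 besides genes that overlap a subunit. ENSG00000285816, which overlaps POLA2 on the same strand and is identical to it over 1980 bp, is absent from the deposited list. It therefore has no count here. Whether POLA2 lost reads to it was not tested, and the level of POLA2 stays uncertain. PRIM2 has the unprocessed pseudogenes PRIM2BP, with 98.6% identity over 1071 bp, and ENSG00000283544, with 98.8% over 838 bp, both listed with no read in any library. A lncRNA gene with 96.2% identity to PRIM2 over 1389 bp, ENSG00000290597, is also absent from the deposited list. A read that fits PRIM2 and a copy equally well may have been left out, so the level of PRIM2 and its ratio to PRIM1 are uncertain. The processed pseudogene POLD2P1, with 91.9% identity over 999 bp, had 1 read in all, and a processed pseudogene of PRIM1 with 90.2% identity, ENSG00000215796, had 1 read in each library. Of overlapping genes on the same strand, NACA shares 4.20% of the exon length of PRIM1, ENSG00000142539 8.63% of that of POLD1 and LIPT2-AS1 2.24% of that of POLD3. On the opposite strand HSD17B6 shares 3.99% of that of PRIM1. ENSG00000142539 was listed with no read in any library, so reads common to it and POLD1 could have been left out. POLA1, POLA2, PRIM2, POLD2, POLE and POLE2 shared no exon bases with another gene of the deposited list.

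Genes that work beside these polymerases at the fork were set next to them. Of 33 such genes, which include POLE3 and POLE4, 28 were in the high class and 5 in the medium class. Their median was 74.9 TPM, against 36.0 TPM for the 10 subunits. The clamp PCNA, on which polymerases δ and ε slide, was the highest at 806, 836 and 763 TPM, a mean of 802 ± 36.4 TPM (SD, n = 3), and 532 TPM with its canonical length. Of the clamp and its loaders 9 of 10 were high, and the lowest was CHTF18, a subunit of an alternative clamp loader that binds polymerase ε, at 23.7 ± 5.64 TPM. Of the genes that mature Okazaki fragments, FEN1, the flap nuclease, was highest at 230.4 ± 7.50 TPM, and 152 TPM with its canonical length. RNASEH2B, a subunit of RNase H2, was lowest over all exons at 4.14 ± 0.298 TPM, but had 43.3 TPM with its canonical length, where RNASEH2C was lowest at 27.2 TPM. Of the 12 genes in the list called replisome, POLDIP3 and POLDIP2 were highest at 148 ± 1.12 and 147 ± 6.58 TPM, with POLDIP2 higher in replicates 1 and 2. Both are named for binding to polymerase δ, and whether they act at the fork was not examined here. With canonical lengths GINS1 was highest of the list at 109 TPM. GINS3 was the lowest, at 18.5 ± 1.09 TPM. Of the single-strand binding protein RPA, RPA1 had 151 ± 5.27 TPM and RPA3 42.1 ± 0.770 TPM. By mean level over all exons, the fork gene nearest to POLA1 was the ligase gene LIG1, at 32.9 ± 0.811 TPM. The nearest to both POLD1 and POLE was ATAD5, which unloads the clamp, at 46.0 ± 1.27 TPM. With canonical lengths all 3 changed, to GINS4 for POLA1, DNA2 for POLD1 and RNASEH2B for POLE. Likeness was measured as the log2 difference of the means over 3 libraries, which hold no change of condition to compare.

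The other DNA polymerases of the nucleus and of mitochondria were lower as a list. Of 16 genes, 2 were in the high class, 11 medium, 2 low and 1 nonexpressed, with a median of 15.8 TPM, against 8, 1, 1 and 0 of the 10 replicative subunits. The highest was MAD2L2, at 116 ± 4.35 TPM over all exons and 360 TPM with its canonical length, an accessory subunit of polymerase ζ that also acts outside it. The other gene in the high class was POLG, the mitochondrial polymerase, at 37.5 ± 2.02 TPM, which is below every value of POLD1 and POLE over all exons. With canonical lengths POLG had 41.96 TPM, within the range of POLD1 and of POLE. DNTT, which adds bases to antigen receptor genes in lymphocytes, had no read in any library, which allows up to 3 reads. With canonical lengths the medians were 42.1 TPM for the subunits, 62.7 TPM for the fork genes and 15.4 TPM for the other polymerases. No test was made of these counts and medians, since genes do not stand in for replicates.

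**Figure D5:**
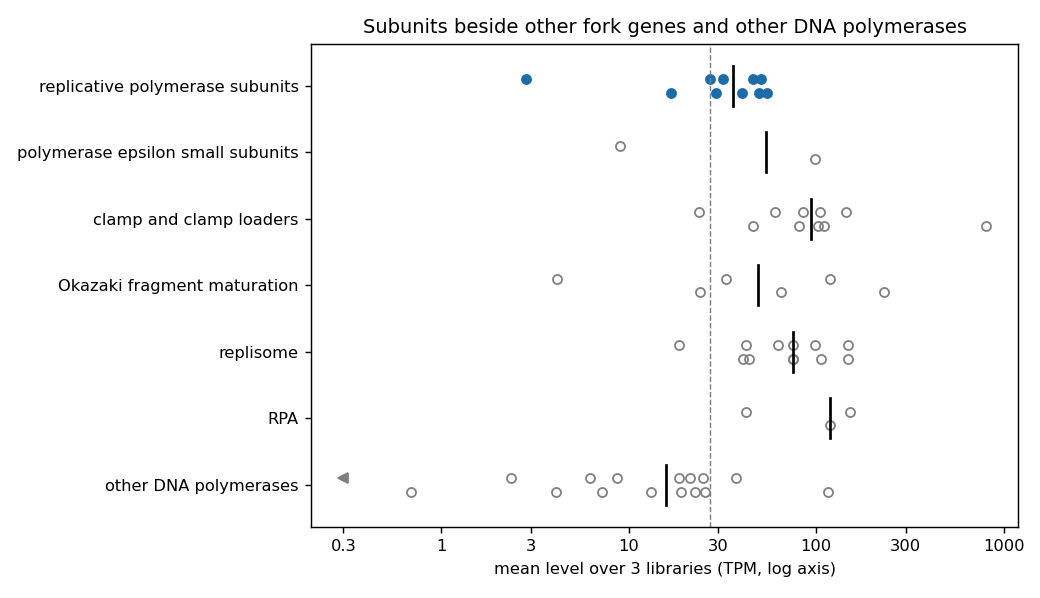
Mean level over 3 libraries (TPM, log axis) of the 10 replicative polymerase subunits (filled) and of the other lists (open), with a black line at each median and a dashed line at the medium/high boundary; the triangle at the left edge is DNTT, which had no read. The subunits, with a median of 36.0 TPM, lie between the other DNA polymerases at 15.8 TPM and most lists of fork genes.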

How the data were processed

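RNA from 3 replicates of H9 cells was sequenced by the authors after depletion of ribosomal RNA. Reads were trimmed with Trim Galore (0.4.4) and aligned to GRCh38 with TopHat2 (2.1.1), per the submitters' processing notes. The deposited values are raw counts of reads per gene, without normalization. Which tool counted the reads, on what annotation and whether by strand is not given in the sources used here, and the study's own levels from Cufflinks (2.2.1) were not used.

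Identifiers were joined to GENCODE release 44, on the same build, and 98.1% of 58051 matched. TPM was computed from the counts over the union of a gene's exons, with no filter. Counting error was taken as Poisson. For the correction, the median log2 ratio of a library to the mean of the libraries was subtracted in 20 bins of exon GC content, set on genes with at least 20 counts. Copies were searched with blastn (2.17.0). Factors came from edgeR (4.0.16) and DESeq2 (1.42.0) in R 4.3.3, and the rest was done in Python 3.11.15 with numpy 2.4.6, pandas 2.3.3 and scipy 1.17.1. With 1 group, no test between groups was made. TPM, the counting CV and the library in which a gene is highest were checked on simulated Poisson counts. The other steps, among them the correction for exon GC content, were not.

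The genes, lists and alternatives were chosen with earlier results of these data known. The genes named were the 10 subunits, POLE3, POLE4, PCNA, the highest and lowest of each other list, the fork gene nearest in level to each catalytic subunit, and genes that overlap or copy a subunit; COL1A2, POLG, POLDIP2, RNASEH2C, GINS1, GINS4 and DNA2 were named after their values were seen. A planned search for motifs in the proteins was not run, since no protein sequences were at hand.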

Additional observations from a re-analysis of the deposited data

How the results depend on the processing

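The main limits are the length by which reads are divided, the number of libraries and the depth at POLD4, where 20 to 24 reads set the level. The number of subunits in the high class was 8, and it was 5 with a threshold of 1 TPM for nonexpressed genes or with only genes that had at least 10 counts in every replicate, since both raise the boundary, 9 with the longest or canonical transcript or with classes over all genes, 7 with a threshold of 0.1 TPM, and 7 to 8 without 1 replicate. With the longest annotated transcript as gene length the ratio was 1.65 for POLA1:POLA2, 1.62 for PRIM1:PRIM2, 0.887 for POLA1:PRIM1, 0.639 for POLD1:POLD2, 14.4 for POLD1:POLD4 and 1.37 for POLE:POLE2. With the canonical transcript these were 1.59, 1.92, 0.707, 0.297, 14.7 and 1.43. Each is above or below the value over all exons by more than its SD between libraries. That SD is no measure of error for such a change, since a new length multiplies a ratio by the same factor in every library. For PRIM1:PRIM2 the SD was also below counting error. The exon length without bases shared on the same strand, an alternative chosen after seeing the data, gave 2.11 for PRIM1:PRIM2 and 1.21 for POLD1:POLE. The number of pairs that were apart and changed the order of their means was 7 with either transcript length. The 2 transcript lengths were not compared pair by pair. Without any 1 replicate the number was 0. The median CV over the 10 subunits, 4.38%, was 2.46% after the correction for exon GC content and 2.60% without replicate 3. It lay between 2.60% and 5.48% without 1 replicate, and was lowest without replicate 3. Leaving out the library farthest from the others always lowers the SD of a gene. Whether replicate 3 set the median CV was therefore not tested. Lowest in replicate 3 were 6 of 9 subunits, and 3 once exon GC content was corrected for. Highest in it were 3, and 1 with TMM factors and 0 after the correction. The share of all genes was not taken with TMM factors or after the correction. Neither TMM nor DESeq2 factors changed a mean level of a subunit by more than its SD. Leaving mitochondrial genes out of the total moved 5 of 10, all higher, since the total is smaller. No paired comparison of groups was possible because all 3 samples belong to a single group. Subunits were paired by library only in the ratios and in the order within each library.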
